A study of Mus musculus with 2 samples.

Results

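Complement is a cascade of plasma and cell-surface proteins of innate immunity, and the 9 genes described here encode components of its classical, alternative and terminal steps and 1 stabiliser. They are C1qa, C1qb, C1qc, C4b, C2, C3, Cfb, Cfp and Hc. A probe was taken as theirs where its RefSeq accession, as the spot files give it, belongs to one of these genes, which gave 10 probes for the 9 genes out of 55680 probes and 21368 named genes. Total RNA of mouse heart was measured in 2 samples, 1 per genotype, each on a 1-colour Agilent array. One heart sample came from the transgenic line B6.Cg-Tg (CAG-WRN*K577M), with the line designation 5025Wcl/Mmmh, WRN-K577M for short, in which the CAG promoter, active in most tissues, drives a WRN helicase that carries a substitution. The other was the control, and both were of C57BL6 background. Both titles carry ND, which the labels do not explain, and age, sex, treatment and the number of hearts behind a sample are not given in the sources used here. The study compared the genotypes to look for signalling that accompanies remodelling of the heart.

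The cascade starts in several ways. In the classical pathway, C1q binds antibody or altered surfaces and its attached proteases cut C4 and C2. In the alternative pathway, C3 that has bound to a surface recruits factor B, and properdin stabilises the complex. All routes meet at the cutting of C3 and then of C5, which releases inflammatory peptides and starts the membrane attack complex. Most plasma complement is made by the liver. Tissue macrophages are a main source of C1q, and fibroblasts and adipocytes make several of the other components.

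A level here is the log2 processed signal minus the log2 of the array's 75th percentile, and log2 ratios subtract the control's level from that of the WRN-K577M heart. A gene is called measured where a probe exceeded background clearly on both arrays by the software's flag, and a difference is counted from 2-fold on. The arrays shared a slide and a scan. By that flag 52.9% of probes on the WRN-K577M array and 55.2% on the control array had signal well above background, and the 75th percentile of the signal was 210 on the WRN-K577M array and 256 on the control array. All 8 cardiomyocyte markers checked, among them Myh6 and Tnnt2, were measured, with log2 ratios between -0.16 and 0.21. With 1 array per genotype there is no replicate check and no p-value, the number of arrays limits the precision, and the genotype cannot be told apart from any other difference between the samples. In RNA of whole tissue, fewer cells of a type and less RNA per cell cannot be told apart either.

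All 9 genes had a lower level in the WRN-K577M heart, by very unequal amounts and for C4b by less than the measurement error. The members were chosen by their place in the cascade and with the ratios of this very comparison known, so the shared direction is a description and supports nothing. Of the 9, 8 were measured on both arrays, with log2 ratios between -1.20 and -0.09 and a median of -0.64, or 1.56-fold lower. Over all 14003 measured genes the median was 0.020, and 47.6% of them had a ratio below 0. Hc was well above background in the control alone. With the bound of Hc included the median of the 9 stayed at -0.64. Hc and Cfp were at least 2-fold lower and no member was 2-fold higher, where 4.16% of all genes with a ratio or bound were at least 2-fold lower and 2.28% at least 2-fold higher. At 1.5-fold the number of lower members was 6, where 10.3% of all genes were as much lower. Since the same contrast chose the genes, nothing is read from these shares.

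**Figure D1:**
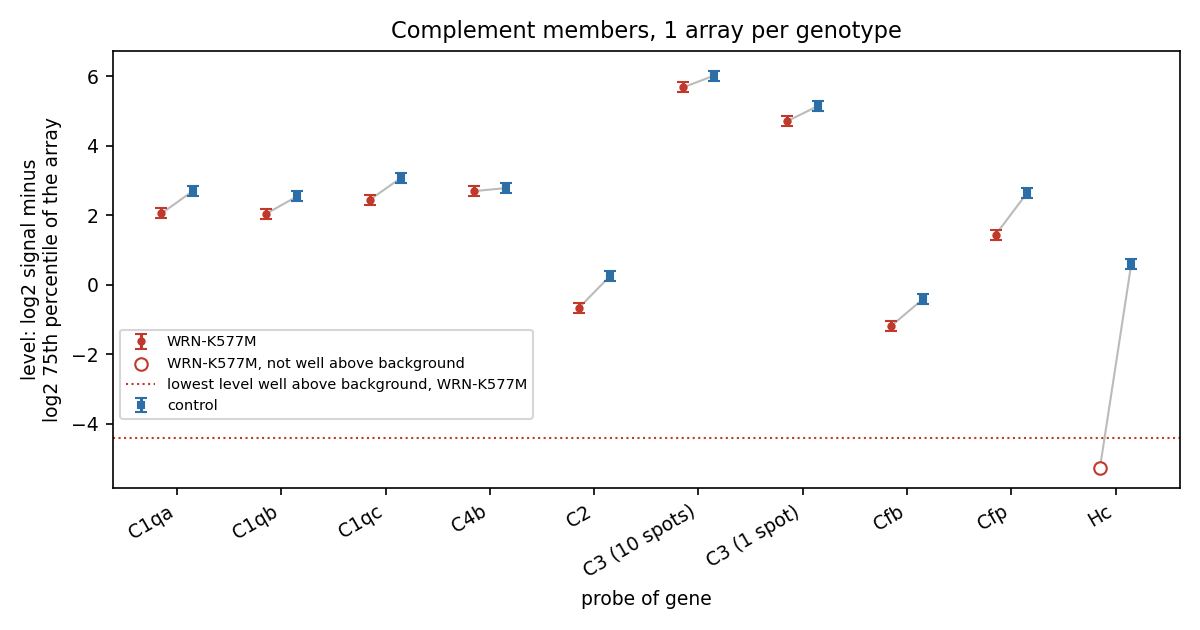
Level of each member probe in the WRN-K577M heart (red circles) and the control heart (blue squares), as log2 signal minus that of the array's 75th percentile, with bars for the software's error of 1 array. Each pair of a measured probe is lower in the WRN-K577M heart, and Hc (open circle, level -5.26) lies under the lowest level that was well above background there, -4.42. Levels are comparable within a probe, not between probes.

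Errors of 2 kinds can be set beside these differences, both of measurement only. The software's error of the log2 ratio was 0.20 to 0.21 for the measured members. The array carried 10 spots each of 1 C1qc and 1 C3 probe, of which 9 remained for C1qc after an outlier was left out, and their ratio varied between spots with an SD of 0.043 for C1qc and 0.036 for C3. Over 260 probes printed at 8 or more spots the SD was 0.12. The ratio of C4b and that of the C3 probe with 10 spots lay within 2 software errors of 0, and the ratios of the other measured member probes lay outside.

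The 3 chains of C1q, the recognition protein of the classical pathway, are products of separate genes that assemble together, and each was lower in the WRN-K577M heart by about the same factor. C1qa had a signal of 868 and level 2.05 in the WRN-K577M heart, against 1653 and 2.69 in the control, a log2 ratio of -0.64 (1.56-fold lower). C1qb had a signal of 859 and level 2.03 in the WRN-K577M heart, against 1487 and 2.54 in the control, a log2 ratio of -0.50 (1.42-fold lower). The chain ratios lay within 0.14 of each other, less than the software's error of 0.20, so the chains did not differ from each other beyond measurement error.

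For C1qc the 9 spots ran from 2.39 to 2.48 on the WRN-K577M array, with a median level of 2.45. On the control array they ran from 3.02 to 3.11, with a median of 3.09. The spots of the arrays did not overlap, and the log2 ratio was -0.63 ± 0.043 (SD over 9 spots of 1 array pair), or 1.55-fold lower. Spots of an array measure the same RNA, so this SD says nothing of the spread between hearts.

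**Figure D2:**
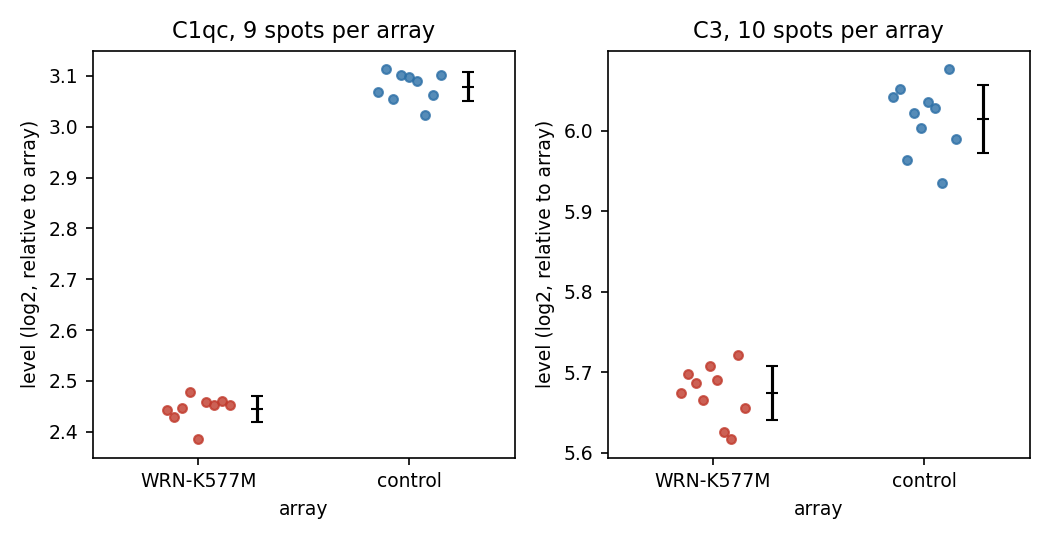
Level of every spot of the C1qc probe (9 spots per array, left) and of the C3 probe with 10 spots (right) in the WRN-K577M heart (red) and the control heart (blue), with the mean and SD over spots in black. Spots scatter by far less than the difference between the arrays for both genes, and the gap is wider for C1qc (log2 ratio -0.63) than for C3 (-0.34). Spots of an array measure the same RNA, and the C3 ratio lies within 2 software errors of 0.

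The C1q genes stand side by side on chromosome 4 in the order C1qb, C1qc, C1qa. The RefSeq promoter table (GRCm38.p6) matched 5 of the 9 members, C1qb, C1qc, C3, Cfp and Hc. The 250 bases upstream of the start of C1qb and C1qc are shown because these adjacent genes were lower together. Each holds 1 copy of GAGGAA, the core letters that the macrophage factor PU.1 binds, here in capitals. Counted from the start of the gene, it lies at position -30 in C1qb, on the strand printed below. In C1qc it lies at -193 on the strand opposite to the printed one, and so is printed as TTCCTC. Of 32851 windows of the same length, 23.3% hold these letters on either strand, so the match is a description and not a site.
C1qb, chr4:136886201-136886450, minus strand: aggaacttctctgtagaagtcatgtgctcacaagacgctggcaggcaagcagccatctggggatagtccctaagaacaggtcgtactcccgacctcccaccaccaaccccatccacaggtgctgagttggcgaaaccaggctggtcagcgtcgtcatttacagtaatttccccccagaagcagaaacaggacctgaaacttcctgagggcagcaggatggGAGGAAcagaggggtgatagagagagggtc
C1qc, chr4:136892915-136893164, minus strand: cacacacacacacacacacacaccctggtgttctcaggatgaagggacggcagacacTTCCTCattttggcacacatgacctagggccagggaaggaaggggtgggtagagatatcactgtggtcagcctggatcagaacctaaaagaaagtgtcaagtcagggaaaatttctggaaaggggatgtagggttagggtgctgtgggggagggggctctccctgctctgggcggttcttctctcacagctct

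Macrophage markers moved with C1q. Of 12, such as Adgre1, the F4/80 antigen, and the chemokine receptor Cx3cr1, 11 had ratios under 0, with a median of -0.67 and a highest value of 0.35 for Mertk. All 12 were measured, and their summed level, on the linear scale in units of the array's 75th percentile, was 22.8 in the WRN-K577M heart and 36.6 in the control. Csf1r makes up the largest part of that sum on both arrays, and its 3 probes disagreed in direction, from -0.72 to 0.19. The C1q ratios lay close to the marker median of -0.67, but single markers ranged widely, from -1.40 for Ccr2 to 0.35 for Mertk. Adgre1 (-1.31) and Cx3cr1 (-1.29) were further down than C1q, and Mrc1 (-0.36) and Cd163 (-0.34) less far. What part fewer or different macrophages have in the C1q result was not tested.

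C4b and C2 supply the pieces of the C3-cutting enzyme of the classical and lectin pathways, and their ratios differed by an amount that depended on the background correction. C4b, the thioester protein that attaches to surfaces, had a signal of 1356 and level 2.69 in the WRN-K577M heart, against 1756 and 2.78 in the control. Its log2 ratio of -0.09 was smaller than the software's error of 0.20. Its near-identical copy C4a, a pseudogene in the reference table, had no probe named here, and whether the C4b probe also reads C4a was not tested.

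C2, the protease of the complex, had a signal of 131 and level -0.68 in the WRN-K577M heart, against 303 and 0.24 in the control. The log2 ratio was -0.92 (1.89-fold lower), just short of 2-fold. Normexp background correction fits a model of signal and background and adds a constant of 50 to every spot, which shrinks the ratios of dim probes most. After normexp the C2 ratio was -0.61, beside -0.04 for C4b, so the gap between these genes was narrower.

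C3, on which all pathways converge, was read by 2 probes that gave similar ratios. The 10 spots of the first ran from 5.62 to 5.72 on the WRN-K577M array, with a median of 5.68, and from 5.94 to 6.08 on the control array, with a median of 6.02. The spots of the arrays did not overlap, and the log2 ratio was -0.34 ± 0.036 (SD over 10 spots), or 1.27-fold lower. As for C1qc, spots of an array measure the same RNA, and this ratio lay within 2 software errors of 0. The second probe had a signal of 5465 and level 4.70 in the WRN-K577M heart, against 9072 and 5.15 in the control, a log2 ratio of -0.44. The probes differed by 0.10, within the software's error. Of the measured genes, 17.5% had a lower ratio than the first C3 probe, which puts the difference of C3 among those seen for many genes.

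Upstream of C3 the searched window holds TTGCGAAA at position -45, a match to TTGCNNAA, letters that factors of the C/EBP family bind and that 9.56% of all windows hold on either strand. C3 is an acute-phase gene in the liver, where such factors are active. The window is shown with the match in capitals as a contrast to the C1q windows, which hold no such match.
C3, chr17:57228137-57228386, minus strand: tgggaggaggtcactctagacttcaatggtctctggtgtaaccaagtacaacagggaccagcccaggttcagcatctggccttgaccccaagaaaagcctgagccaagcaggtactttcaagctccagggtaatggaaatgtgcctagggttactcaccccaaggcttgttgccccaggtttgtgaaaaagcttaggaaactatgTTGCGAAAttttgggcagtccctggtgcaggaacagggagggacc

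Of the alternative pathway genes, Cfp lay below C3 by 0.86 on the log2 scale, beyond 2 combined software errors (0.58), while Cfb lay below it by 0.42, within them. Cfb, factor B, the protease of the alternative C3-cutting enzyme, had a signal of 92.5 and level -1.18 in the WRN-K577M heart, against 191 and -0.42 in the control. The log2 ratio was -0.76 (1.70-fold lower), and 5.82% of measured genes had a lower one. It was -0.57 after normexp.

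Cfp, properdin, which stabilises that enzyme and is made by myeloid cells, had a signal of 569 and level 1.44 in the WRN-K577M heart, against 1590 and 2.64 in the control. Its log2 ratio of -1.20 (2.29-fold lower) was the lowest of the measured members, and 2.14% of measured genes had a lower one. Before scaling between arrays the signal in the WRN-K577M heart was 0.358 of that in the control. Beside the macrophage markers, neutrophil markers such as S100a8 and S100a9 (both -4.98) were lower. In that list 4 of 6 genes with a ratio or bound were at least 2-fold lower, while Camp had -0.41 and Elane 0.24. The summed level was 3.46 in the WRN-K577M heart, the largest part of it from Elane, and 43.8 in the control. The part of macrophages and neutrophils in the Cfp result was not tested.

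Cfd, factor D or adipsin, the protease that activates factor B and an abundant product of fat cells, stood at 1.24 in the WRN-K577M heart, against 3.95 in the control. It is no member of the 9, and its log2 ratio of -2.71 (6.52-fold lower) exceeded that of every measured member. Adipocyte markers, a list that holds Cfd as well, were mostly lower too. Of 7 genes with a ratio or bound, 6 were at least 2-fold lower, a count that includes Cfd itself beside genes such as Adipoq (-3.31). Fabp4, which endothelium also makes, had a ratio of 0.53. The summed level of that list, which Fabp4 dominates, was 196 in the WRN-K577M heart and 155 in the control. The part of fat tissue in the Cfd result was not tested.

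Hc encodes C5, whose cutting releases the peptide C5a and starts the membrane attack complex. Several inbred mouse strains are known to carry a defective Hc allele, and C57BL6 is known to carry an intact one. Which Hc allele each sample carried was not tested, and neither was its part in the Hc result. The single Hc probe had a signal of 5.46 and level -5.26 in the WRN-K577M heart, where it was not well above background, against 387 and 0.60 in the control. The unprocessed median of the spot was 45 over a local background of 43 in the WRN-K577M heart, and 476 over 43 in the control. The WRN-K577M spot was thus at its own background, and the difference is a bound. The control level, set against the lowest level that cleared background on the WRN-K577M array, -4.42, puts Hc at least 32.3-fold lower by that rule. That level is no sharp limit, since Retnlg at -4.12 on the same array was not well above background. After normexp the log2 bound was -2.64 instead of -5.01. No second probe checks this value.

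**Figure D3:**
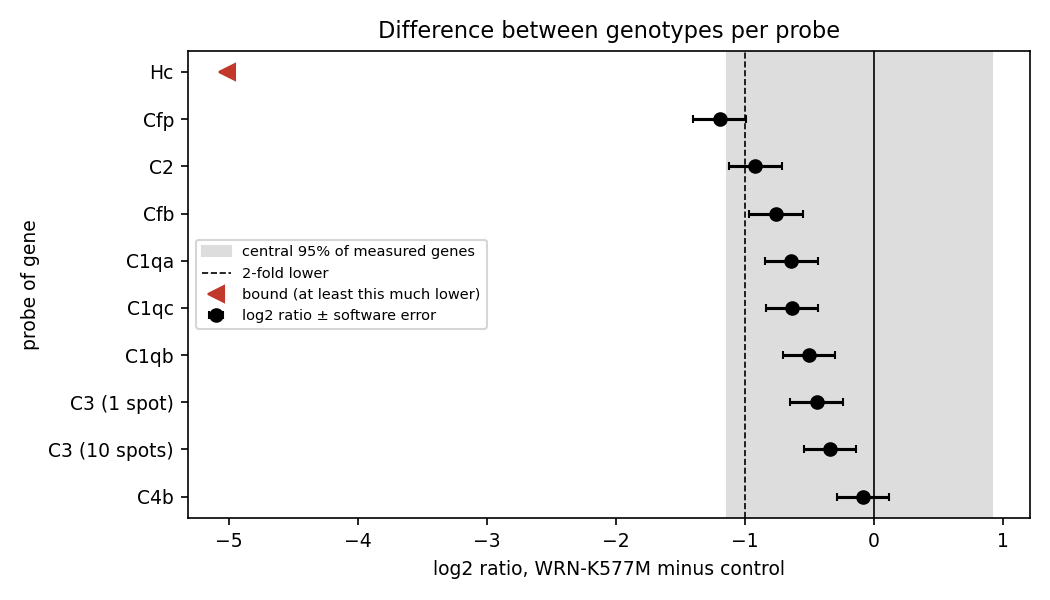
Log2 ratio (WRN-K577M minus control) of the member probes, with bars for the software's error, over the central 95% of all 14003 measured genes (grey, from -1.14 to 0.91). Hc is drawn at its bound of -5.01, Cfp at -1.20 lies just outside the grey range, and all other member probes lie inside it.

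Lung epithelium genes and alveolar macrophage genes, whose cells are not part of the heart, were also found in the control. Of 10 lung epithelium markers, 6 were well above background in the control alone, among them the surfactant genes Sftpc, Sftpb and Sftpd, and 7 of 8 with a ratio or bound were at least 2-fold lower. Their summed level was 10.7 in the WRN-K577M heart, most of it from Lamp3 (-0.47), and 148 in the control. Of the alveolar macrophage markers, 4 of 8 with a ratio or bound were at least 2-fold lower, such as Chil3 (-2.92). Their summed level, most of it from Car4, which endothelium also makes, was 13.7 in the WRN-K577M heart and 17.0 in the control. The part of such tissue in the results for Hc, C2, Cfb, Cfp and C1q was not tested. Hepatocyte genes gave no such pattern. Neither array had Alb, Apoa1, Fga, Fgb or Fgg well above background, and 5 of 12 markers were measured, with a median of 0.02. Ttr, transthyretin, was 5.28-fold higher in the WRN-K577M heart. The summed hepatocyte level was 12.8 in the WRN-K577M heart and 12.1 in the control. Mesothelial markers, from cells of the heart's outer layer, had 5 of 6 ratios above 0, a median of 0.29 and a summed level of 8.07 in the WRN-K577M heart and 6.85 in the control. For fibroblast markers, 7 of 10 were at least 2-fold lower, with a summed level of 234 in the WRN-K577M heart and 333 in the control. Dcn, with a ratio of -0.06, makes up most of that sum on both arrays. The 7 endothelial markers had a median of -0.03, and a summed level of 43.2 in the WRN-K577M heart and 52.6 in the control. Of the atrial markers, 6 of 7 with a ratio or bound were at least 2-fold lower, among them Sln (-9.41), Myl7 (-7.39) and Myl4 (-7.12). Stard10 (-0.52) was short of 2-fold. The summed atrial level was 159 in the WRN-K577M heart, most of it from Nppa (-1.06), and 659 in the control. The part of atrial tissue or fibroblasts in the results for the members was not tested.

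Ordered by ratio, the members ran Hc, Cfp, C2, Cfb, C1qa, C1qc, C1qb, C3 and C4b, from the lowest up. Hc at its bound stood below Cfp by 3.82 on the log2 scale, beyond 2 combined software errors (1.20), and after normexp the gap was 1.55. Every other step between neighbours in that order, at most 0.28 and between Cfp and C2, was within 2 combined errors of about 0.58. The order of neighbours above Hc is therefore not settled by these arrays. With 2 arrays no pattern across samples exists, and no genes are named for a pattern like that of the members.

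The members lie at 5 places in the genome, and the genes around them did not share their ratios in general. Among 20 protein-coding neighbours, 2 on each side of each place, 16 were measured, with a median log2 ratio of 0.07 and a range from -1.40 to 0.93. Traf1, an adaptor of TNF receptors next to Hc on chromosome 2, was the single neighbour at least 2-fold lower (-1.40), and Cntrl on the other side of Hc had a ratio of 0.35. Ephb2 and Zbtb40 around the C1q genes had 0.21 and -0.33. Timp1, the matrix protease inhibitor beside Cfp on chromosome X, had a ratio of 0.93, opposite to Cfp.

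On chromosome 17, C4b, Cfb and C2 belong to a single gene-dense region. Cfb and C2 are adjacent and had ratios of -0.76 and -0.92, and Zbtb12 beyond C2 had -0.71. C4b stood at -0.09, and the 5 protein-coding genes between C4b and Cfb (Cyp21a1, Stk19, Dxo, Skiv2l and Nelfe), named after their values were seen, all had ratios above 0, up to 0.76 for Nelfe. The lower ratios were thus not shared along the region.

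**Figure D4:**
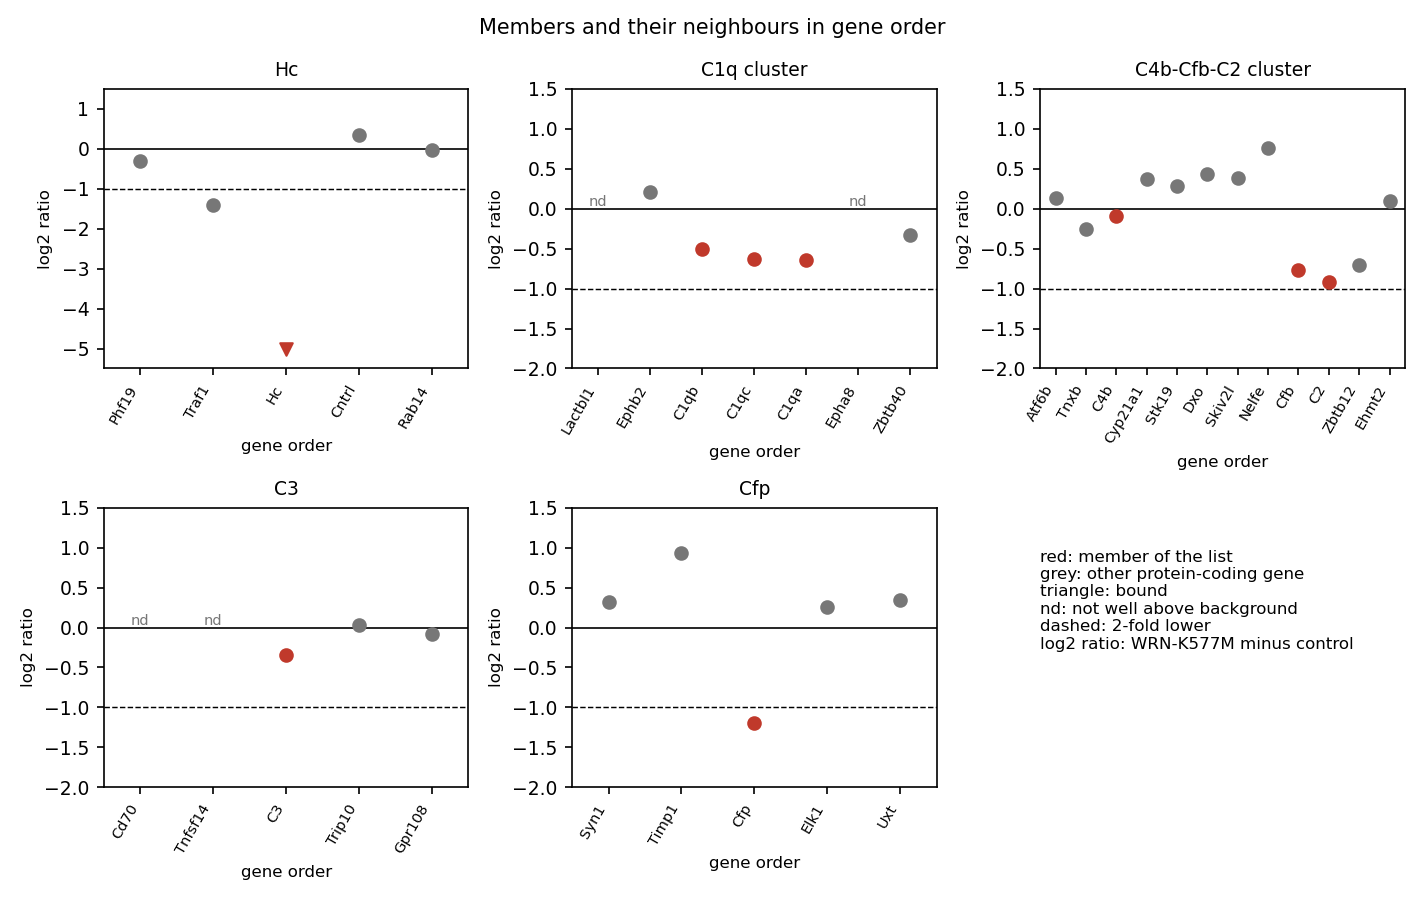
Log2 ratio (WRN-K577M minus control) of the members (red) and of neighbouring protein-coding genes (grey) in gene order at 5 places, with nd for genes not well above background. Hc at its bound of -5.01 and Cfp at -1.20 lie beside genes with other ratios, such as Cntrl at 0.35 and Timp1 at 0.93, and Cfb and C2 lie beside Zbtb12 at -0.71.

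The window upstream of Hc is shown because Hc had the largest difference. It holds TATAAA at position -239, in capitals, and none of the other letters searched. TATAAA is found in 12.4% of all windows on either strand. The others, besides those named above, were TGANTCA for AP-1 (6.75% of windows) and GAAANNGAA for interferon-regulated factors (7.13%), both on either strand, and neither occurs in the 5 members' windows, and no matches overlapped. The window upstream of Cfp held none of the letters searched, which says nothing of any factor.
Hc, chr2:35061413-35061662, minus strand: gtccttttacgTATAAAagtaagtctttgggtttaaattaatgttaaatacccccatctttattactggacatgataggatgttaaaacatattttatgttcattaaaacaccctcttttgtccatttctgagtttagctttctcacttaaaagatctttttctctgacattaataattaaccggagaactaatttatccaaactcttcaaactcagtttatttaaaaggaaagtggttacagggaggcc

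The rest of the pathway was read from a list of 55 other complement genes, of which 54 had a named probe, 35 were measured and 1, C6, had a bound. Of the 36 with a value, 6 (16.7%) were at least 2-fold lower and 2 (5.56%) at least 2-fold higher, beside 4.16% and 2.28% of all genes with a ratio or bound. The median of the 35 was -0.30, beside 0.020 over all measured genes. A total of 18 did not clear background on either array, mostly genes known from liver plasma proteins, such as Mbl1, Mbl2, C8a, C8b, C9, C4bp and Crp. After normexp the ratios past 2-fold were those of Cfd (-2.53) and Vsig4 (-1.16), while Fcna had -0.70, Itgax -0.67, Ptx3 0.62 and Cpb2 0.51.

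In the classical group, the C1 proteases C1ra, C1s1 and C1s2, which C1q carries, had ratios of -0.51, -0.40 and -0.46, and the fourth gene, C1rb, had -0.28. C1ra and C1rb, and C1s1 and C1s2, are near-identical pairs, and the probes may not separate them. Serping1, the C1 inhibitor, stood at 5.10 in the WRN-K577M heart and 5.01 in the control. Ptx3, a pentraxin that binds C1q, went the other way, at -2.08 in the WRN-K577M heart and -3.52 in the control, 2.71-fold higher (log2 ratio 1.44).

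In the lectin group, 4 of 9 genes were measured. Fcna, a ficolin of macrophages, stood at -2.38 in the WRN-K577M heart and -1.03 in the control, 2.54-fold lower. The collectin genes Colec11 (0.57) and Colec12 (-0.52) and the associated protease gene Masp2 (0.43) were short of 2-fold.

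Of the terminal genes that build the membrane attack complex after C5, C7 stood at -3.50 in the WRN-K577M heart and -2.33 in the control, 2.24-fold lower. C8g had a ratio of 0.10. C6 was above background in the control alone, and its log2 bound of -0.06 was smaller than the software's error of 0.48, so no difference is read from it. Both C6 and C7 were dim, and the C7 ratio was -0.21 after normexp.

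Regulators mostly lay within 2-fold. In the fluid phase, 2 of 4 measured genes had ratios below 0. Clu, clusterin, a blocker of the attack complex, had a ratio of 0.41 and Vtn one of -0.53. Cpb2, a carboxypeptidase that inactivates C5a, was 2.22-fold higher (log2 ratio 1.15) at -3.25 in the WRN-K577M heart and -4.40 in the control. On membranes, 5 of 7 measured genes had ratios below 0, with a median of -0.60. Cd55 had a ratio of -0.56, Cd55b one of -0.67, Cd59b one of -0.76 and Thbd, thrombomodulin, one of -0.60. Above 0 were Cr1l, the rodent regulator Crry (0.34), and Cd59a, which blocks the attack complex (0.24). The complement regulator Susd4 was 2.24-fold lower (-1.16, and -0.28 after normexp), at -3.73 in the WRN-K577M heart and -2.57 in the control.

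All 11 receptor and binding-protein genes were measured, and the receptors for the released peptides were near equal. C5ar1 and C5ar2, the C5a receptors, had ratios of -0.19 and 0.05, and C3ar1, the C3a receptor, one of -0.03. Vsig4, a macrophage receptor for C3 fragments, stood at -1.27 in the WRN-K577M heart and 0.37 in the control, 3.12-fold lower. Itgax, a subunit of complement receptor 4 on myeloid cells, stood at -3.47 in the WRN-K577M heart and -1.50 in the control, 3.92-fold lower. Itgb2, its partner chain, had a ratio of -0.68. The 3 probes of Itgam, the chain of complement receptor 3, disagreed in direction, from -0.36 to 0.24. Vsig4, Itgax and Itgb2 are myeloid genes and were lower like the macrophage markers given above, whose part in them was not tested. Other myeloid genes of the group, C3ar1, C5ar1 and the brightest Itgam probe (0.24), were not lower beyond 2 software errors.

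**Figure D5:**
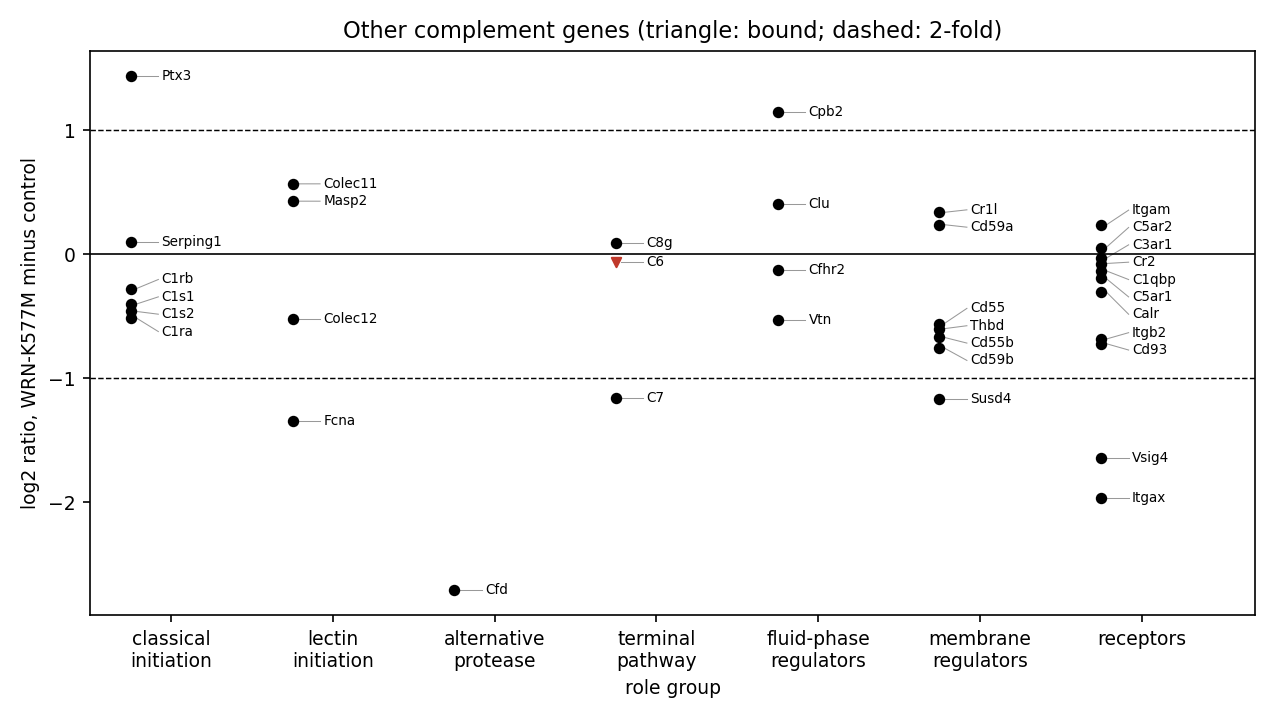
Log2 ratio (WRN-K577M minus control) of the 36 other complement genes with a value, by role, with a triangle for the bound of C6 and dashed lines at 2-fold. Cfd (-2.71), Itgax (-1.97), Vsig4 (-1.64), Fcna (-1.35), Susd4 and C7 (both -1.16) lie below the lower line and Ptx3 (1.44) and Cpb2 (1.15) above the upper one.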

How the data were processed

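Intensity values come from the scanner software Agilent Feature Extraction 11.5.1.1, named in the file headers. The processed signal had been background-subtracted and detrended, and the deposited columns also give the unprocessed intensity of spot and local background and 0 or 1 flags in other columns, per the file headers. In the deposited series matrix, intensity is linear: each column was the processed signal times 4.86 (WRN-K577M) or 4.12 (control), for a reason the sources used here do not give, with column medians of 79.0 (WRN-K577M) and 79.5 (control) and no centring by gene.

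Control spots and 257 outlier spots were left out, and no spot was saturated. Log2 signals minus the log2 75th percentile were averaged over the spots of a probe. Unversioned RefSeq accessions were named through a GRCm38.p6 table (22544 of 23871 matched, 50.9% of probes named). The array's annotation is on mm9, per the file headers, so probe positions are left out. A gene took the brightest of its probes that cleared background on both arrays. Where it did so on 1 array alone, the ratio is a bound, taken against its level on the dim array or, if higher, the lowest level that cleared background there (-4.42 for WRN-K577M, -4.73 for the control). Fold changes are set beside the software's error and the spread between spots, and with 1 array per group no test was made. The members and lists were chosen with earlier results of these data known. Named genes are the members, pathway genes at least 2-fold different with others of each role, 2 neighbours on each side and markers with large ratios, and further names were chosen after their values were seen. One pathway gene is not reported here and was left out of the counts. Python 3.11.15, numpy 2.4.6, pandas 2.3.3, R 4.3.3, limma 3.58.1 and matplotlib 3.10.9 were used.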

Additional observations from a re-analysis of the deposited data

How the results depend on the processing

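Results were recomputed with 3 other normalizations (normexp, quantile, cyclic loess), other scalings and filters, probe means, the series matrix, and 1.5-fold or 3-fold as the threshold. Normexp ran on the median spot signal with an offset of 50. Every member kept a ratio or bound below 0 under the 9 alternatives other than the thresholds (80 of 80 values), and the median over members ran from -0.69 with the series matrix to -0.60 after normexp. For a measured member with 1 probe, filters and probe means cannot change the ratio, and other scalings shift all ratios alike. The shared sign under these settings was therefore largely fixed in advance and is no independent check. The number of members at least 2-fold lower, 2 as reported, was 1 with the stricter filter, which asks for signal well above background on both arrays, and so leaves out Hc, and for a mean level of at least -2, 6 at 1.5-fold and 1 at 3-fold. No member was as much higher under any alternative. Of the other complement genes, 6 were at least 2-fold lower as reported, 2 after normexp (Cfd and Vsig4), 3 with the stricter filter, 11 at 1.5-fold and 3 at 3-fold, where the shares of all genes with a value were 4.16%, 1.45%, 2.92%, 10.3% and 1.45%. The stricter filter leaves out Ptx3, C7, Cpb2, Susd4 and Itgax. Those at least 2-fold higher, 2 as reported, were 0 after normexp, 0 with the stricter filter, 0 at 3-fold and 7 without a filter on dim probes, where the shares of all genes were 2.28%, 0.783%, 1.65%, 0.602% and 5.80%. Dim signals limit every count. No paired analysis was possible because there is 1 array per group.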
